A study of Mus musculus with 8 samples.

Results

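The hypoxia target genes described here are 10 genes that cells switch on when oxygen is short: Vegfa, Adm, Pdk1, Egln3, Bnip3, Ankrd37, Car9, P4ha1, Ddit4 and Slc2a1. They were taken by name and not by a cut on their values, though earlier results of these data were known. They come from the 18193 genes that the arrays measure with a probe set of a single symbol. Together they have 19 probe sets. RNA of whole E14.5 fetal livers was measured on Affymetrix Mouse Genome arrays, with 1 array for each embryo, from 4 Eklf-/- embryos (KO, replicates 2 to 5) and 4 wild-type embryos (WT, replicates 1 to 4). The KO embryos came from a B6 line in which Eklf was deleted from both copies by way of an engineered BAC construct and E2A-Cre mice. The cells in which that Cre acts are not given in the sources used here. Eklf, also called Klf1, encodes EKLF, a transcription factor of red cell precursors that binds CACCC motifs. The sample titles begin with BH0188 in KO and BH0153 in WT. The labels and methods do not explain these codes, and whatever they mark cannot be told apart from genotype. Nothing says which embryos were littermates, and the p-values therefore measure the spread between these embryos only.

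Cells sense oxygen through prolyl hydroxylases that use oxygen to mark the alpha subunits of hypoxia-inducible factor (HIF) for destruction by the VHL ubiquitin ligase. When oxygen falls, the alpha subunit survives, pairs with ARNT and binds a short core, ACGTG or GCGTG, near its target genes. The targets bring in blood vessels, take up and ferment glucose, cut back mitochondrial respiration, remodel collagen and slow growth. The fetal liver is the main site of red cell production at this stage, and these cells carry the embryo's oxygen.

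In the KO livers 7 of the 10 genes rose, 1 fell and 2 did not pass the test, counting each gene by its brightest probe set, the one with the highest mean over all 8 arrays. Vegfa, Adm, Egln3, Bnip3, Ankrd37, P4ha1 and Ddit4 rose between 4.12-fold and 8.43-fold. Slc2a1 fell 2.67-fold, and Pdk1 and Car9 were not called. A gene was called at an adjusted p under 0.05 from limma with Benjamini-Hochberg adjustment over 23379 tested probe sets. Among all 11292 tested genes 25.6% were called higher and 21% lower, so that called genes are common in this comparison. In 7 of the 10 genes every KO array was above every WT array, and the same held for 24.4% of all tested genes. The median log2 difference (KO minus WT) of the 10 genes was 2.11, beside 0.06 over all tested genes, whose 25th and 75th percentiles were -0.32 and 0.43. Of the 19 probe sets, all of which passed the minimum signal of 100 in a group mean, 14 were higher and 3 lower, beside 34.4% and 17.7% of all probe sets tested. Among those higher, 1418648_at of Egln3 passed the minimum in KO only. All log2 values given below are log2 of the MAS5.0 signal, and levels of different genes cannot be set against each other.

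The whole arrays differed by genotype as well. Klf1 itself was 9.81-fold lower in KO (log2 difference -3.29, SE 0.10, adjusted p = 5.9e-07 from limma), though where its probes lie relative to the deletion is not given. The spiked-in hybridisation controls read 11.54 to 11.85 in KO and 12.36 to 12.55 in WT on the log2 scale, a difference of -0.75 (p = 0.029 by a two-sided exact permutation test over 70 assignments of the arrays, with no smaller p possible for 4 against 4). Scaling to them adds 0.75 to every log2 difference, and scaling to the 75th percentile of each array takes off 0.27, so a difference between -0.75 and 0.27 changes sign under one of the scalings tried. Sex-linked genes set a WT array apart: Xist read 5.37 to 6.09 in the 4 KO arrays, 13.03 in WT replicate 1 and 6.17 to 6.84 in the other 3 WT arrays on the log2 scale. Leaving out WT replicate 1 changed no call of the 10 genes. The log2 signal of the Actb control at the 3′ end exceeded that at the 5′ end by 0.547 ± 0.0625 in KO and 0.851 ± 0.0798 in WT (SD, n = 4 each, exact permutation test, p = 0.029), while the Gapdh control gave -0.197 ± 0.0338 in KO and -0.163 ± 0.0551 in WT (exact permutation test, p = 0.40). The part of RNA quality in the differences was not tested. Livers were measured whole, so fewer cells of a type and less RNA per cell cannot be told apart.

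The sequences before the start sites of the 8 called genes show where the HIF core stands. In the 250 bases upstream of the start, RefSeq promoter sequence (GRCm38.p6) held ACGTG or GCGTG on either strand for 10 of the 10 genes, and so did 38.6% of 32851 windows of the same length. Vegfa and Pdk1 have 2 start sites each in the table, and counted by window the core was in 10 of the 12. ACGTG was found for 8 of the genes and in 16.6% of windows, and GCGTG for 8 of the genes and in 28.2% of windows. CACCC, the letters EKLF binds, was found on either strand for 7 of the genes and in 52% of windows. The stretches below run 5′ to 3′ on the strand of the gene, and capitals mark the core as read on either strand (CACGT and CACGC are the same letters on the other strand). They are shown because they are the genes whose level differed, and a match is a description of letters, not of a bound site.
Vegfa, chr17:46025355-46025396, minus strand: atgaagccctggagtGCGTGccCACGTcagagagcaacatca
Adm, chr7:110627552-110627622, plus strand: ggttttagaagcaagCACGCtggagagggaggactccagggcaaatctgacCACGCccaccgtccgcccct
Egln3, chr12:54204084-54204118, minus strand: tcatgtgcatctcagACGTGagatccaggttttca
Bnip3, chr7:138909522-138909638, minus strand: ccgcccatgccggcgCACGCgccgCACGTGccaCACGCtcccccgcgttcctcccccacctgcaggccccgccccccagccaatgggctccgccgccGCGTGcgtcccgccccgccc
Ankrd37, chr8:45999851-46000100, minus strand: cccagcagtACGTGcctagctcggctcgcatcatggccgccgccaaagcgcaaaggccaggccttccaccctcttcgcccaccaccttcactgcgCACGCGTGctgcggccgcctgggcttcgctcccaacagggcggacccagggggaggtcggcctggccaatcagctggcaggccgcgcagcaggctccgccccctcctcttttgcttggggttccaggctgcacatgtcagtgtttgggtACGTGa
P4ha1, chr10:59323118-59323295, plus strand: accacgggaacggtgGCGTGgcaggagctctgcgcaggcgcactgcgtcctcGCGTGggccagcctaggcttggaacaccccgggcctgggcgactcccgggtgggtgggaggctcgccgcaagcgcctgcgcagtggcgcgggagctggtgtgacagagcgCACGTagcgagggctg
Ddit4, chr10:59951866-59951972, minus strand: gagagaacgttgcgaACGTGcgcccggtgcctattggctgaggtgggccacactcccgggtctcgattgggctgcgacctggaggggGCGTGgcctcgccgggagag
Slc2a1, chr4:119108669-119108728, plus strand: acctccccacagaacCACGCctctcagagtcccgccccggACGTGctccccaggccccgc

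Bnip3 held ACGTG 2 times and GCGTG 3 times in its stretch, the palindrome CACGTG counting once on each strand, and Egln3 held ACGTG once. Slc2a1, the gene that fell, carried both forms of the core, so the letters in this window did not separate it from the genes that rose. The Vegfa stretch is from the second of its start sites.

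**Figure D1:**
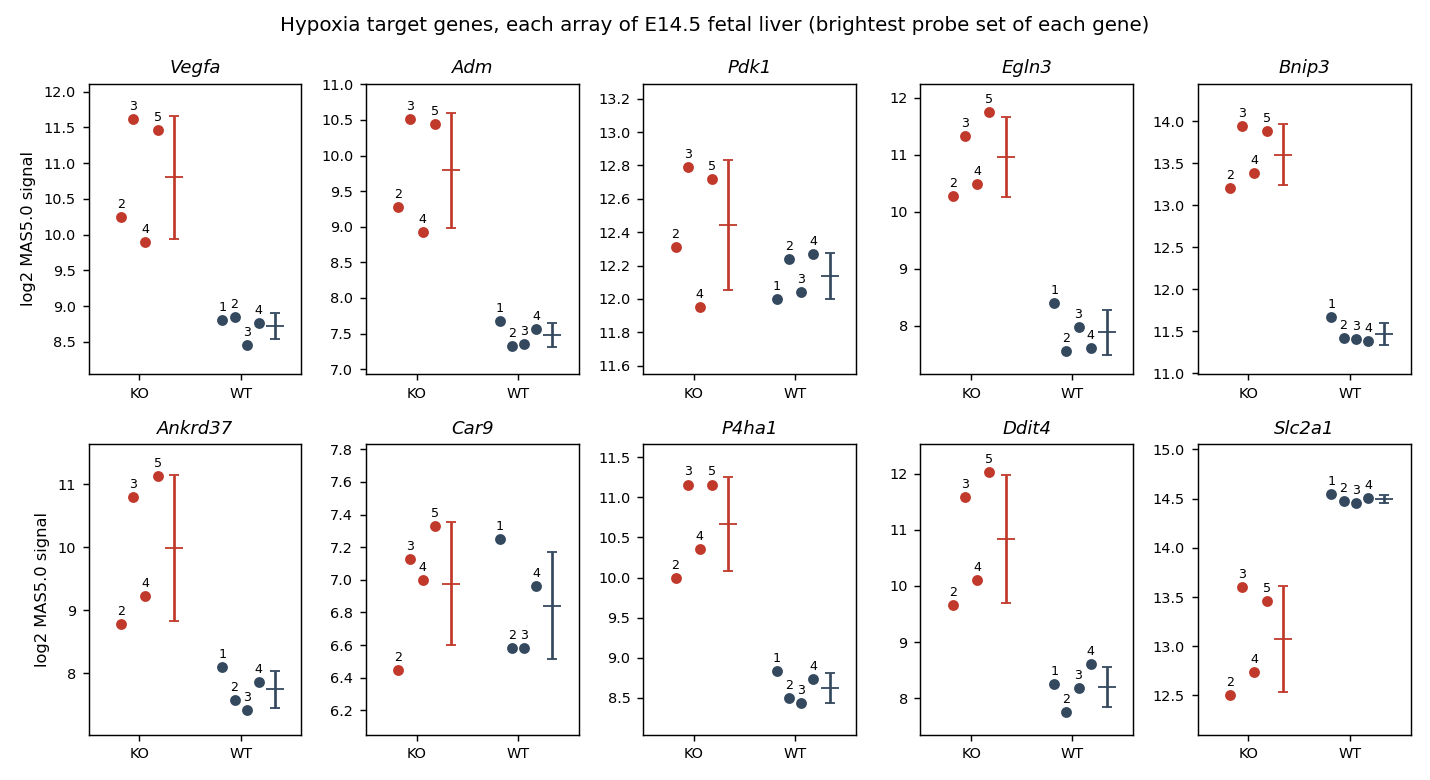
Log2 MAS5.0 signal (vertical axes, each with its own range) of the 10 hypoxia target genes in every array, KO left and WT right. Points are embryos with their replicate number, and bars are the mean ± SD (n = 4). Every KO array lies above every WT array for 7 genes and below for Slc2a1, and the groups overlap for Pdk1 and Car9.

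Vegfa and Adm are the secreted signals of the set. Vegfa encodes the growth factor that drives blood vessel growth, and its log2 signal was 10.24, 11.61, 9.89 and 11.46 in KO replicates 2 to 5 and 8.81, 8.85, 8.45 and 8.77 in WT replicates 1 to 4. The groups did not overlap, and KO replicates 3 and 5 stood over a unit above KO replicates 2 and 4. The difference was 2.08 (SE 0.37, 95% interval 1.23 to 2.93, adjusted p = 0.0019 from limma), a 4.22-fold rise. The second Vegfa probe set, 1451959_a_at, rose by less, 1.23 (SE 0.32, adjusted p = 0.011 from limma), and there KO replicate 2 at 8.15 lay just below WT replicate 4 at 8.21.

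Adm encodes adrenomedullin, a peptide that widens vessels and is needed for vessel growth in the embryo. Its brightest probe set read 9.28, 10.51, 8.93 and 10.44 in KO replicates 2 to 5, against 7.67, 7.33, 7.35 and 7.56 in WT replicates 1 to 4. The lowest KO array was thus above the highest WT array by more than the whole WT range. The rise was 2.31 (SE 0.35, adjusted p = 0.00075 from limma), or 4.96-fold. This probe set has the suffix _x_at, which marks probes that can match other transcripts. The other Adm probe set, 1416077_at, without that suffix, rose by 2.58 (SE 0.35, adjusted p = 0.00041 from limma).

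By their brightest probe sets the receptors and relatives of these ligands had smaller differences. Of 9 tested genes 6 rose and 0 fell, with a median difference of 0.68. Under quantile normalization and under scaling to the 75th percentile 2 of the 9 were called higher. The count was 2 without KO replicate 3, 2 without KO replicate 5, 3 without WT replicate 1 and 3 without WT replicate 3, so most of these calls depend on the scaling and on single arrays. Flt1, a VEGF receptor of endothelium, read 8.41 to 8.60 in KO and 6.34 to 7.26 in WT, a rise of 1.69 (SE 0.23, adjusted p = 0.00043 from limma). The 4 Flt1 probe sets were all called higher, by 1.63 to 3.41. The probe set with 3.41 had a WT mean below a signal of 100, so that value is not set against Vegfa or Adm. Kdr, the main signalling receptor for VEGF, rose by 1.19 (9.25 to 9.63 in KO, 8.11 to 8.38 in WT). Vegfc, a growth factor for lymph vessels, rose by 1.01 and Nrp2, a co-receptor, by 0.79. Calcrl, the receptor that binds adrenomedullin when paired with a RAMP protein, rose by 0.68. Vegfb, a further ligand, differed by 0.34 and was called at an adjusted p of 0.047 from limma. The other co-receptors were not called: Ramp1 differed by 0.36, Nrp1 by 0.22 and Ramp2 by 0.20, and Ramp3 was too dim to be tested. Nrp1 had 4 probe sets, of which the other 3 were called higher, by up to 2.02.

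Egln3 stands at the sensing end of the response, and Ankrd37 is described after it. Egln3 encodes PHD3, a prolyl hydroxylase that marks HIF alpha and is itself induced by HIF. Its log2 signal was 10.27, 11.33, 10.48 and 11.75 in KO replicates 2 to 5 and 8.40, 7.55, 7.98 and 7.60 in WT replicates 1 to 4. It had the largest difference of the 10 genes, 3.08 (SE 0.34, 95% interval 2.30 to 3.85, adjusted p = 0.00016 from limma), an 8.43-fold rise. The dimmer probe set, 1418648_at, differed by 3.17 (SE 0.74, adjusted p = 0.0071 from limma), and because its WT mean was below a signal of 100 the rise is given as at least 5.29-fold. WT replicate 2 read 3.70 on that probe set, against 6.39 to 6.72 in the other WT arrays.

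Ankrd37 encodes a small ankyrin repeat protein and is a known HIF target. Its log2 signal was 8.78, 10.80, 9.22 and 11.13 in KO replicates 2 to 5, against 8.10, 7.58, 7.42 and 7.86 in WT replicates 1 to 4. No KO array reached down to the WT arrays, but the KO arrays themselves spread over 2.35. The rise of 2.24 therefore had a wide 95% interval, 1.10 to 3.38 (SE 0.50, adjusted p = 0.0056 from limma). The methods' two-sample test was run with the spread free to differ between KO and WT and not shared across probe sets. By that test the adjusted p of Ankrd37 was 0.061, and it was the only gene of the 10 to lose its call there.

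The mRNAs of the oxygen sensors and of HIF itself were mixed, and their calls depended on the scaling. Of 8 tested genes 3 rose and 1 fell, and the median difference was 0.08, which turned to -0.18 under scaling to the 75th percentile and to -0.10 under quantile normalization. Under scaling to the hybridisation controls 7 of the 8 were called higher and 0 lower, with a median of 0.83. Hif1a, the alpha subunit found in most cells, read 11.38 to 11.79 in KO and 11.61 to 11.77 in WT, a difference of -0.16 that was not called and whose sign turned under scaling to the hybridisation controls. Of its 3 probe sets 1 was called higher, by 0.97. Epas1, which encodes the alpha subunit HIF-2 alpha of endothelium and other cells, rose by 0.90 (10.56 to 11.23 in KO, 9.80 to 10.30 in WT, adjusted p = 0.0029 from limma). Egln1, the hydroxylase PHD2, also rose by 0.90 (adjusted p = 0.0032 from limma), and Arnt, the partner subunit, rose by 0.49. Hif3a, whose product can restrain HIF, differed by -0.45, was called lower and turned sign under the hybridisation controls, and its 5 probe sets split into 2 higher, 2 lower and 1 not called. Differences not called were 0.11 for Hif1an, which hydroxylates HIF alpha on asparagine, 0.06 for Vhl and -0.23 for Egln2, another prolyl hydroxylase.

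Slc2a1, Pdk1 and Car9 belong to the handling of glucose, pyruvate and acid. Slc2a1 encodes GLUT1, a glucose transporter of many cells, red cell precursors among them. Its log2 signal was 12.50, 13.60, 12.74 and 13.46 in KO replicates 2 to 5, and 14.55, 14.47, 14.45 and 14.51 in WT replicates 1 to 4. The KO arrays were all lower than the WT arrays, while the 4 WT arrays spanned just 0.10. The difference was -1.42 (SE 0.24, adjusted p = 0.0013 from limma), a 2.67-fold fall. Both other probe sets fell too, by 1.48 and by 1.28. The fall was less deep in KO replicates 3 and 5, the arrays in which the other genes were highest. The markers of the red cell series were also lower in KO. Of 10 tested markers 10 were called lower, and 7 under scaling to the hybridisation controls. Of the 3 Slc4a1 probe sets 2 were called lower and 1 higher, by 1.46. The summed signal of the markers was 54259.8, 50299.3, 51323.6 and 49715.0 in KO replicates 2 to 5, and 133393.3 to 142862.4 in WT. Within KO this sum was lowest in replicates 3 and 5, unlike Slc2a1. The part of the red cell series in the fall of Slc2a1 was not tested.

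Pdk1 encodes a kinase that turns off pyruvate dehydrogenase and so keeps pyruvate out of the mitochondria. Its brightest probe set read 12.31, 12.79, 11.95 and 12.72 in KO replicates 2 to 5 and 12.00, 12.24, 12.04 and 12.27 in WT replicates 1 to 4. KO replicate 4 was the lowest of the 8 arrays and KO replicates 3 and 5 were the highest. The difference was 0.30 (SE 0.19, 95% interval -0.13 to 0.74, adjusted p = 0.21 from limma) and was not called, though it was without KO replicate 4 (0.47, adjusted p = 0.032 from limma). The other 3 probe sets disagreed with the brightest, and all were called higher. Probe set 1434974_at rose by 1.43 (SE 0.23, adjusted p = 0.001 from limma), 1423748_at by 0.96 and 1435836_at by 0.82. Whether Pdk1 is counted as higher thus depends on which probe set stands for it, and the mean over its probe sets differed by 0.88.

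Among the other regulators of pyruvate dehydrogenase, Pdk2 rose by 1.34 (8.03 to 8.89 in KO, 6.57 to 7.55 in WT), and Pdk4, another kinase of the family, by 1.21 (at least 2.19-fold, its WT mean being below 100). Pdk3 differed by 0.27 and was called higher. Pdp2, a phosphatase that opposes the kinases, rose by 1.11, while Pdp1, the other phosphatase, differed by -0.06 and was not called. The subunits of the enzyme complex differed by -0.29 to 0.28: Pdhb was called lower, and Pdha1, Dlat, Pdhx and Dld were not called. Of these 10 tested genes 4 were thus called higher and 1 lower, with a median of 0.11. Scaling to the 75th percentile gave 3 higher and 3 lower with a median of -0.16, and scaling to the hybridisation controls gave 10 of 10 higher with a median of 0.86. The call of Pdhb was lost in 7 of the 8 fits that left out 1 array and turned sign under the hybridisation controls.

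Car9 encodes carbonic anhydrase IX, an enzyme of the cell surface that helps to remove acid. Its log2 signal was 6.45, 7.13, 7.0 and 7.33 in KO replicates 2 to 5, against 7.25, 6.58, 6.58 and 6.96 in WT replicates 1 to 4. The groups overlapped, and 1 KO array and 2 WT arrays were below a signal of 100. The difference of 0.14 (SE 0.22, 95% interval -0.37 to 0.64, adjusted p = 0.63 from limma) was not called and changed sign under scaling to the 75th percentile and under quantile normalization. At a signal this dim the interval leaves room for a change in either direction.

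Most other genes of glycolysis differed from WT in the opposite direction to Slc2a1. Of 14 tested genes 11 rose and 1 fell, with a median difference of 1.16. Pfkl (0.27, adjusted p = 0.077 from limma) and Ldha (0.15, adjusted p = 0.24 from limma) were not called. Slc16a3, the lactate exporter MCT4, had the largest rise of the list, 2.92 (10.82 to 11.27 in KO, 7.90 to 8.28 in WT, SE 0.14, adjusted p = 3.4e-06 from limma). Pfkp, a phosphofructokinase, rose by 2.61 (SE 0.27). Slc2a3, which encodes the glucose transporter GLUT3, rose by 2.33 (12.84 to 13.37 in KO, 10.68 to 10.92 in WT, SE 0.13, adjusted p = 6.3e-06 from limma). Both glucose transporters thus changed by more than the spread between embryos, in opposite directions. Hk1, the hexokinase of red cells, was called lower by 0.29, a difference that turned sign under the hybridisation controls, and no gene of the list was called lower in 7 of the 8 fits that left out 1 array. The other probe set of Hk1 was called higher by 1.12.

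Bnip3 and Ddit4 act inside the cell on mitochondria and on growth. Bnip3 encodes a protein of the outer mitochondrial membrane that promotes the removal of mitochondria. Its log2 signal was 13.21, 13.95, 13.38 and 13.88 in KO replicates 2 to 5 and 11.67, 11.42, 11.41 and 11.39 in WT replicates 1 to 4. Its lowest KO array lay 1.54 above its highest WT array, a gap exceeded among the genes that rose by Egln3 alone (1.86). The rise was 2.13 (SE 0.18, 95% interval 1.73 to 2.54, adjusted p = 3.6e-05 from limma), or 4.39-fold, the smallest p of the set.

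Ddit4 encodes REDD1, which restrains the growth kinase complex mTORC1 and is induced by hypoxia and by other stresses. It read 9.66, 11.58, 10.10 and 12.02 in KO replicates 2 to 5, against 8.26, 7.75, 8.18 and 8.61 in WT replicates 1 to 4. The KO arrays spread over 2.36, the widest of the set, and still lay above all WT arrays. The rise was 2.64 (SE 0.50, 95% interval 1.51 to 3.78, adjusted p = 0.0025 from limma), or 6.24-fold. The other genes of mTORC1 control were mixed: of 8 tested, 2 rose, 3 fell and the median was -0.20, which turned to 0.55 under the hybridisation controls. Sesn2, a stress sensor that also restrains mTORC1, rose by 1.68 (at least 2.31-fold, since its WT mean was below a signal of 100) and Tsc2, a brake on mTORC1, by 0.46. Sesn1, a relative of Sesn2, fell by 1.40 (8.56 to 10.14 in KO, 10.44 to 11.46 in WT). Rptor, a subunit of mTORC1, differed by -0.54 and Rheb, its activator, by -0.35, and both were called lower, with the sign turned under the hybridisation controls. The count of 2 higher was 1 without KO replicate 3, KO replicate 5, WT replicate 2 or WT replicate 3, and 0 under quantile normalization and with the replicate number as a block. Scaled to the hybridisation controls, Sesn1 differed by -0.65 and lost its call (adjusted p = 0.0975 from limma).

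Ddit4 is also a target of ATF4, a transcription factor of the response to amino acid shortage and misfolded protein, so a list of that response was set beside it. Of 15 tested genes 10 rose and 1 fell, with a median of 1.45. Among those that rose, Atf3, Sesn2 and Slc7a11 had a WT mean below 100 and passed the minimum signal in KO only. Trib3, a pseudokinase, rose by 2.98 (9.59 to 11.16 in KO, 7.12 to 7.84 in WT, SE 0.38, adjusted p = 0.00032 from limma). Vldlr, a lipoprotein receptor, rose by 2.58. Slc7a11, the cystine importer, was called higher by 3.54, but all its WT arrays were below a signal of 100, so that the rise is at least 1.40-fold. Atf4 itself differed by -0.07 and was not called, and Ppp1r15a, which helps to end the response, fell by 0.78. The difference of Ppp1r15a was -0.03 under scaling to the hybridisation controls and was not called there (adjusted p = 0.897 from limma), where 14 genes of the list were higher and 0 lower. In 12 of the 15 genes KO replicates 3 and 5 both lay above KO replicates 2 and 4, the order described below for the hypoxia target genes. The part of either factor in the Ddit4 signal was not tested.

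P4ha1 encodes the catalytic subunit of the prolyl hydroxylase that stabilises collagen. Its log2 signal was 10.00, 11.16, 10.36 and 11.16 in KO replicates 2 to 5 and 8.83, 8.50, 8.44 and 8.73 in WT replicates 1 to 4, with no overlap. The rise was 2.04 (SE 0.27, adjusted p = 0.00036 from limma), or 4.12-fold, and the second probe set, 1426519_at, rose by 1.94. In the list of collagen modification 6 of 9 tested genes rose and 0 fell, with a median of 1.01. Scaling to the 75th percentile gave 5 higher and 2 lower, and quantile normalization 6 higher and 1 lower. The hybridisation controls gave 9 higher and 0 lower. Plod2, a lysyl hydroxylase, rose by 2.46 (9.11 to 10.65 in KO, 7.21 to 7.65 in WT), P4ha2, the sister subunit, by 2.43 and Col1a1, a collagen chain, by 1.58, though the other Col1a1 probe set differed by -0.33 and was not called. P4hb, the shared partner subunit, differed by -0.10 and Plod1 by -0.23, and neither was called.

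**Figure D2:**
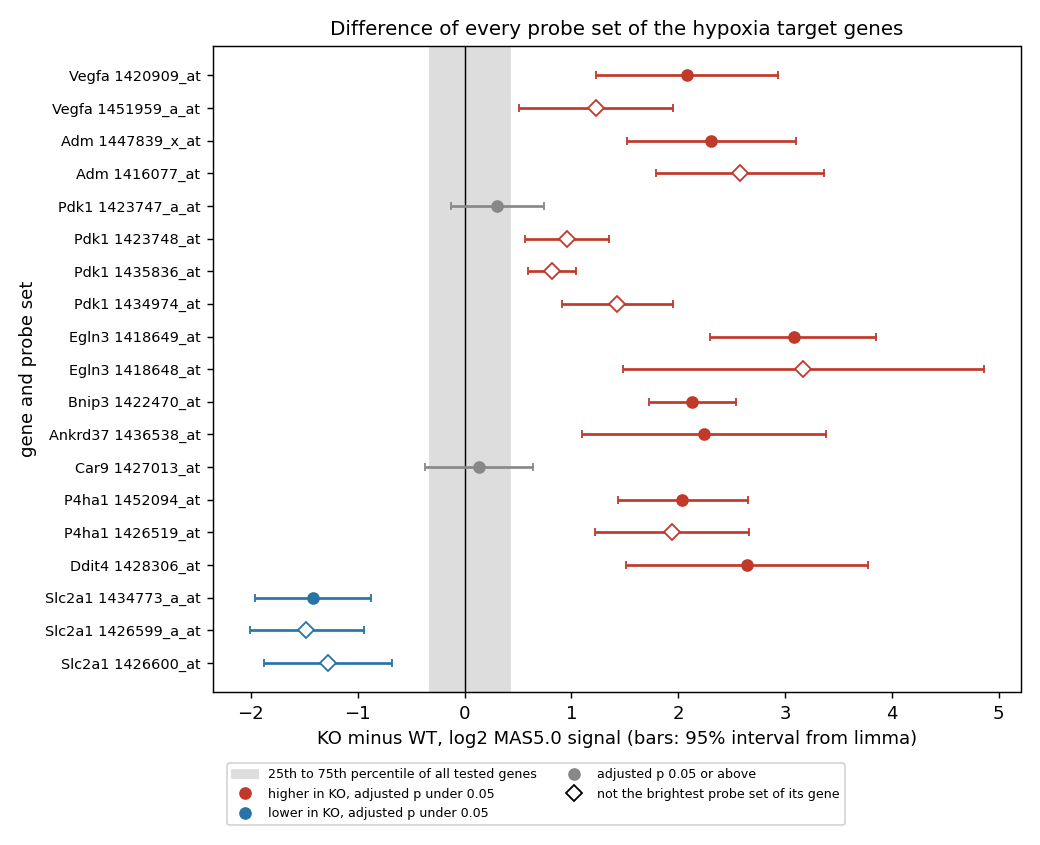
KO minus WT difference in log2 MAS5.0 signal (horizontal axis) of all 19 probe sets (vertical axis), with 95% intervals from limma. Filled circles are the brightest probe set of a gene and open diamonds the others, and the grey band runs from -0.32 to 0.43, the 25th to 75th percentile of all tested genes. The 3 Slc2a1 probe sets lie left of 0, and of the 4 Pdk1 probe sets the brightest is the one whose interval crosses 0.

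A longer list of further HIF targets, none of them among the 10, was set beside the set. Of 34 listed genes 30 were tested, and 21 rose, 0 fell and 9 were not called, with a median difference of 1.17. Among those that rose, Stc2 and Ndufa4l2 had a WT mean below 100 and passed the minimum signal in KO only. Plod2 and P4ha2 led the list, followed by Ero1a, an oxidase of protein folding, which rose by 2.31 (12.96 to 13.82 in KO, 11.03 to 11.18 in WT, SE 0.20, adjusted p = 4.5e-05 from limma). The genes not called were Pgf, Pfkfb4, Angptl4, Ndrg1, Wsb1, Mxi1, Insig2, Higd1a and Plod1, with differences from -0.23 to 1.35. Of these Ndrg1 had 5 probe sets, and the other 4 were called higher. Under scaling to the 75th percentile 16 of the 30 were called higher and 2 lower, and under the hybridisation controls 30 of the 30 were higher.

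**Figure D3:**
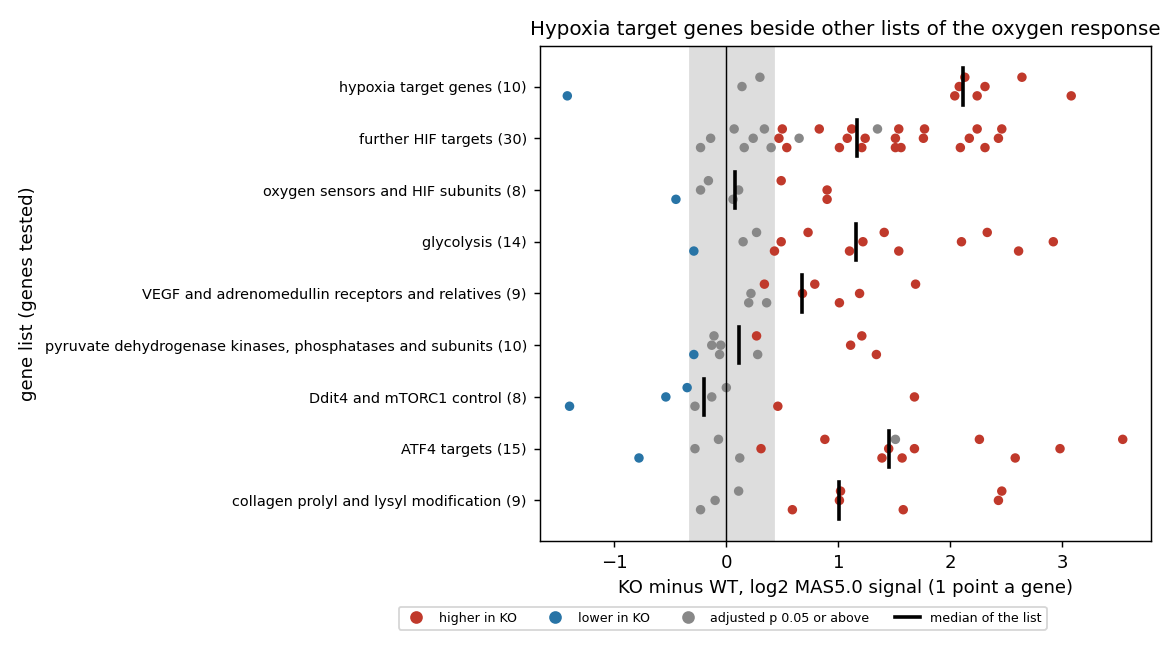
KO minus WT difference in log2 MAS5.0 signal (horizontal axis) of every tested gene in the hypoxia target set and 8 further lists (vertical axis, number of genes in brackets). Each point is a gene by its brightest probe set, black bars are the medians of the lists, and the grey band is the 25th to 75th percentile of all tested genes. The medians are 2.11 for the hypoxia target genes, 1.17 for further HIF targets and 0.08 for oxygen sensors and HIF subunits.

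The 10 genes did not rise evenly over the KO embryos. In KO replicates 2 to 5 the median of the 10 genes stood 1.42, 2.71, 1.47 and 2.64 above the WT mean on the log2 scale, and 10 of the 10 genes were higher in both KO replicates 3 and 5 than in both KO replicates 2 and 4. The same order was found in 27.6% of all tested genes. Over all tested probe sets the log2 signals of KO replicates 3 and 5 correlated at 0.977 and those of KO replicates 2 and 4 at 0.978. The other KO pairs correlated at 0.956 to 0.962, and pairs of WT arrays at 0.974 to 0.978. The KO arrays thus fell into 2 like pairs over the whole array, and the labels do not explain the pairs. Slc2a1, Pdk1 and Car9, which were not called higher, had this order too. The mean of KO replicates 3 and 5 exceeded that of KO replicates 2 and 4 by 0.51 to 1.97 on the log2 scale, the least in Car9 and the most in Ankrd37 (1.97) and Ddit4 (1.92). Of the 19 probe sets 18 had the order, the exception being 1435836_at of Pdk1. The SD over the KO arrays exceeded that over the WT arrays for 10 of the 10 genes, with medians of 0.644 in KO and 0.184 in WT, against 0.221 in KO and 0.136 in WT over all tested genes.

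**Figure D4:**
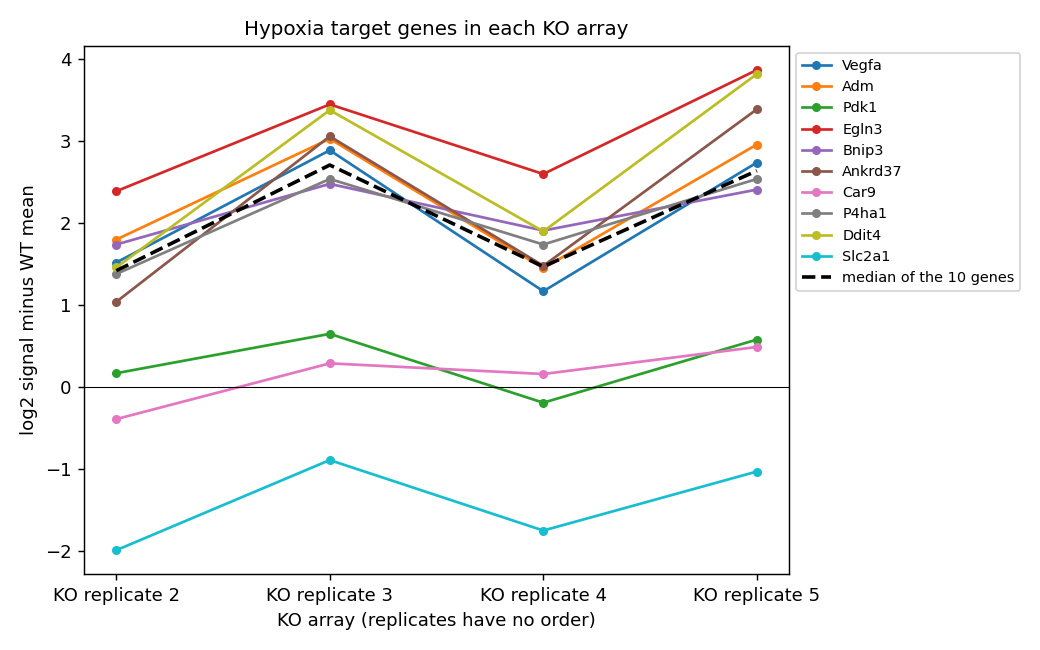
Log2 MAS5.0 signal of the 10 hypoxia target genes in each KO array minus the WT mean of the gene (vertical axis). Each coloured line joins the values of 1 gene over KO replicates 2 to 5, which have no order, and the dashed line is the median of the genes (1.42, 2.71, 1.47 and 2.64). KO replicates 3 and 5 are above KO replicates 2 and 4 for every gene plotted.

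Other signals had the same order among the KO arrays. The poly-A controls, spiked into the RNA before labelling, read 7.89, 8.30, 7.72 and 8.20 in KO replicates 2 to 5 and 7.85 to 8.01 in WT on the log2 scale. Scaled to them, 8 of the 10 genes kept the order, as did 4.69% of all tested genes, and scaled to the hybridisation controls 9 of the 10 kept it, as did 14.8%. The summed signal of 12 endothelial markers was 9725.2, 12315.2, 10145.0 and 12019.5 in KO replicates 2 to 5 and 6981.1 to 7303.0 in WT. That of 10 markers of stellate and mesenchymal cells was 21967.6, 34989.8, 24200.2 and 30196.9 in KO replicates 2 to 5, against 16290.3 to 19069.5 in WT. Both sums were above WT in every KO array (exact permutation test, two-sided, p = 0.029 for each). Of the 12 endothelial markers 10 were called higher and 0 lower, and of the 10 stellate markers 6 were higher and 0 lower. Quantile normalization gave 6 higher and 0 lower in each list. Scaling to the 75th percentile gave 6 higher and 1 lower for endothelium, and 4 higher and 0 lower for stellate markers. The summed signal of 11 macrophage markers also had this order within KO, with 20012.1 to 32975.4 in KO and 32946.8 to 37641.1 in WT. Neither the red cell sum nor that of hepatocyte markers had it, and the hepatocyte sum was 175133.4 to 205595.4 in KO and 253340.5 to 277954.0 in WT. Among the called markers with the largest changes, Vwf, Pecam1 and Flt1 of the endothelial list rose by 1.78, 1.73 and 1.69. Col1a1, Pdgfra and Pdgfrb of the mesenchymal list rose by 1.58, 1.07 and 1.01. By their brightest probe sets the endothelial markers Cdh5 (0.30) and Lyve1 (-0.11) were not called, while the other probe set of each was called higher. Of 14 hepatocyte markers 2 were called higher (Apob by 0.62 and Dlk1 by 0.34) and 8 lower, led by Apoa2 (-0.71), Apoa1 (-0.70) and Ttr (-0.67), and all 5 of these turned or lost their call under one of the scalings. Of 11 macrophage markers 2 were called lower, Timd4 by 1.23 and Ctsb by 0.80. The red cell genes Hbb-b2 and Ank1 fell by 5.12 and 3.02, and Hba-a2, below 100 in KO, was at least 3.88-fold lower. Of the 3 Ank1 probe sets 2 were called lower, and the last differed by 0.03 and was not called. Across the 5 marker lists 0 genes were below a signal of 100 in all 8 arrays. The part of these cell types and of the labelling in the differences of the hypoxia target genes was not tested.

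The genes most like the set were sought by the root mean square difference between a gene's log2 profile over the 8 arrays, less its WT mean, and the median profile of the 10 genes. The 5 nearest genes outside the set were Trp53inp1 (0.135), Igfbp5 (0.164), Cybrd1 (0.222), Rgs5 (0.243) and Kcne3 (0.245), leaving out placeholder symbols. The 10 genes themselves lay 0.121 (P4ha1) to 2.46 (Slc2a1) from the median profile, with Egln3 at 0.76, Pdk1 at 1.27 and Car9 at 1.39. The 5 genes are thus near the median profile and not near each of the 10 genes. Trp53inp1, a target of p53 that takes part in autophagy, read 10.29, 11.19, 10.40 and 11.51 in KO replicates 2 to 5 and 8.65 to 8.93 in WT. Igfbp5, which binds insulin-like growth factors, read 7.66, 9.15, 7.82 and 8.91 in KO replicates 2 to 5 and 6.34 to 6.51 in WT. Cybrd1 encodes a ferric reductase, Rgs5 a regulator of G proteins in pericytes, and Kcne3 a potassium channel subunit. Because they were picked for their likeness over the same arrays, their differences are given as a description, with no test. Trp53inp1, Cybrd1 and Rgs5 were 4.12-fold, 3.52-fold and 4.30-fold higher in KO. The WT means of Igfbp5 and Kcne3 were below a signal of 100, and they were at least 3.34-fold and 3.36-fold higher.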

How the data were processed

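The deposited values are linear intensities, which the authors computed and normalized for every probe set with the standard MAS5.0 method. MAS5 and R 3.0.2 are named in the submitters' processing notes. The trimmed mean without 2% at each end was 500.0 in every array. Any 2 arrays had at most 1 value in common, so none was a repeat of another. Of 45101 probe sets, 34945 had 1 symbol in the platform annotation, 932 had several, 9160 had none and 64 were controls. Probe sets with several symbols named no gene.

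After log2 transformation without a pseudocount, the 23379 probe sets whose mean in KO or in WT exceeded log2 of 100 entered limma 3.58.1 (lmFit and eBayes, two-sided, R 4.3.3) on genotype alone, and Benjamini-Hochberg adjusted p under 0.05 over all of them counted as called. The test was checked on simulated data with independent noise of the same spread in both groups. That check does not cover the wider spread of the KO arrays or their like pairs. A gene is represented by its brightest tested probe set, and a fold is given against 100 where a group mean was lower. Control and marker signals were compared by exact permutation. Arrays hold no counts, and their number limits the precision. Summaries used pandas 2.3.3, scipy 1.17.1 and numpy 2.4.6 under Python 3.11.15.

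The rule for named genes took all probe sets of the 10 genes, all genes of the sensor, receptor and pyruvate dehydrogenase lists, in other lists the 3 that rose most and the 3 that fell most among those called, and the 5 nearest profiles. Atf3, Atf4, P4hb, Plod1, Pfkl, Ldha, Slc4a1, Cdh5, Lyve1, Stc2, Ndufa4l2 and the further HIF targets that were not called were named after their values were seen. The genes, the 13 further lists and the tests were chosen with earlier results of these data known. Alternatives were other scalings (quantile, 75th percentile, hybridisation and poly-A controls), pseudocounts of 16 and 64, other filters, trend and robust options, the methods' two-sample test, the mean of a gene's probe sets, a replicate block and leaving out each array. Bnip3l, Epo, Gapdh and 8 other listed genes had no probe set of a single symbol in the table used here and were not analysed.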

Additional observations from a re-analysis of the deposited data

Results flagged for a closer look

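In 38 groups of 4 arrays, 19 probe sets in KO and in WT, the highest or lowest array was set against its neighbours by Dixon's test, which flags about 1 group in 20 by chance. It marked 3 WT groups and no KO group. On the second Vegfa probe set, 1451959_a_at, WT replicate 4 read 8.21 on the log2 scale, and its gap was 0.914 of the whole range. It is the array that KO replicate 2 did not exceed on that probe set. On the dimmer Egln3 probe set, 1418648_at, WT replicate 2 read 3.70, with a gap of 0.891 of the range. On the Bnip3 probe set the lowest KO array read 13.21 and WT replicate 1 read 11.67, with a gap to the other WT arrays of 0.889 of the WT range.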

How the results depend on the processing

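The counts of 7 hypoxia target genes higher and 1 lower in KO were found under most alternatives. Scaling to the hybridisation controls gave 9 higher and 1 lower, with Pdk1 (1.05) and Car9 (0.88) called, and moved the median of the 10 genes to 2.85. The difference of Car9 turned to -0.13 under scaling to the 75th percentile and to -0.28 under quantile normalization. The methods' two-sample test, with the adjustment added here, gave 6 higher, without Ankrd37. Leaving out 1 array gave 7 to 8 higher, 1 lower and medians of 1.87 to 2.30. At a minimum signal of 200 Car9 was no longer tested. The same numbers of KO and WT arrays did not deviate together (correlations of 0.00, -0.08 and -0.03 for replicates 2, 3 and 4), so they were taken as names. With the replicate block 7 genes were higher, 1 lower and the median was 1.96. KO replicate 5 and WT replicate 1 have no partner of the same number, so they do not enter the difference under the block. The part of this loss of arrays in the counts under the block was not tested. Over all probe sets 12195 were called, 66.0% of them higher, against 18742 (96.8% higher) under the hybridisation controls, 7780 (71.7%) with the replicate block, 10972 (51.1%) under quantile normalization and 12443 (41.9%) under the 75th percentile. Counts of the other lists moved too. Under the hybridisation controls hepatocyte markers were 7 higher and 0 lower, against 2 and 8 as deposited, and macrophage markers 5 higher and 1 lower, against 0 and 2. Quantile normalization gave 2 hepatocyte markers higher and 0 lower. Without KO replicate 5, 7 macrophage markers were lower. The replicate block gave 2 receptor genes higher, against 6, 3 stellate markers higher, against 6, and 2 hepatocyte markers lower, against 8.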
